A study of Rattus norvegicus with 18 samples.

Results

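Interferon-stimulated genes are the genes that a cell turns on after an interferon has bound its receptor. A list of 46 such genes was looked up by symbol among the 30735 genes counted in rat cerebral cortex. Of these, 45 were found and all 45 passed the filter on low counts, and Oas1b was not analysed here. The cortex came from 18 adult Sprague Dawley rats without any genetic change, each giving 1 library, with 6 rats per group (sham, SAH 1d, SAH 7d). SAH is subarachnoid hemorrhage, made here by pushing a filament through an artery at the base of the brain from inside the vessel. Cortex was taken 1 or 7 days later. The sham rats went through the same operation without the perforation, so they are operated animals and not untouched ones, and the day on which they were sampled is not given in the sources used here. The study describes the tissue as the cortex of the operated side, whereas the labels of the libraries name both sides, and neither gives the sex of the animals. Total counts ran from 27270026 to 38271014 per library. The 7 neuron genes checked summed to 6227 to 9820 CPM in sham, to 5033 to 6171 CPM in SAH 1d and to 2354 to 8997 CPM in SAH 7d. The lowest sum was that of SAH 7d-5, which stood apart in genes of immune cells, as did SAH 1d-3. Levels are CPM, the counts of a gene per 1e+06 counts of its library after scaling between libraries, and are compared only within a gene.

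Interferons of type I, such as the alpha and beta interferons, act through the kinases JAK1 and TYK2 and a complex that holds STAT2 and IRF9 and binds the interferon-stimulated response element (ISRE). Interferon gamma, of type II, acts through JAK1 and JAK2 and on genes that carry the gamma-activated site (GAS). In the brain, microglia, astrocytes, endothelial cells and neurons can all respond, and many of the induced proteins hold back viruses by sensing, cutting or sequestering nucleic acids. In bulk tissue, fewer cells of a type and less RNA per cell cannot be told apart.

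Promoters of the genes with the largest called differences at SAH 1d are shown first, to let the letters be read that interferon-activated factors are known to bind. The core of the ISRE was searched as GAAANNGAAA, which reads TTTCNNTTTC on the other strand, and the GAS as TTCNNNGAA, which reads the same on both strands. The RefSeq promoters of the GRCr8 build matched 34 of the 45 genes by symbol. Within the 250 bases before the annotated start, 21 of these 34 genes (61.8%) held an ISRE core, against 3.41% of all 33469 promoters. A GAS was found in 9 of the 34 (26.5%), against 7.67% of all promoters. Among the genes called at SAH 1d the ISRE core was present in 13 of 20 (65.0%), and among those not called in 8 of 14 (57.1%). A match describes the letters only and is not a measured binding site. The 160 bases before the start are given below for the 6 genes with the largest called difference that hold either motif. This leaves out Zbp1 and Isg15, for which no promoter was matched, and Oasl, whose promoter holds neither. The sequences run 5′ to 3′ on the strand of the gene, with the matches in capitals.
Rsad2: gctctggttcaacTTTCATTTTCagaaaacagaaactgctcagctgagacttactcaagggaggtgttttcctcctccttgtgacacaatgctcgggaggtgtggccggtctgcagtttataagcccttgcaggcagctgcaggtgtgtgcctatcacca
Gbp2: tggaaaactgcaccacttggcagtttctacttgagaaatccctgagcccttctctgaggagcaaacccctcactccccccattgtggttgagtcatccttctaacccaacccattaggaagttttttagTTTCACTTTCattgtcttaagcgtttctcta
Oas3: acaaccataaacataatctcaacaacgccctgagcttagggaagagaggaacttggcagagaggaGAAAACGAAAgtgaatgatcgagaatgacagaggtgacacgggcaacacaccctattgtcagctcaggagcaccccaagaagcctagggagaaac
Gbp5: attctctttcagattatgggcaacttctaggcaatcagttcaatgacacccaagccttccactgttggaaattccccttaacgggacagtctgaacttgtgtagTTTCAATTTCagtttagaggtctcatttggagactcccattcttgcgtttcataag
Bst2: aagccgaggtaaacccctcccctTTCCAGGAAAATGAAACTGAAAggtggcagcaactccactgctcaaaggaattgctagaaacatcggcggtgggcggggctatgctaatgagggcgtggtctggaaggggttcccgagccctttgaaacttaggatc
Igtp: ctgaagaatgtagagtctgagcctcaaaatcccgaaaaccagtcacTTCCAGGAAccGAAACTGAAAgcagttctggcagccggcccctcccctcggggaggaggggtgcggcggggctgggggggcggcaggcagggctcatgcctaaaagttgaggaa
The sequences lie at chr6:48788121-48788280 (minus strand) for Rsad2, chr2:234005567-234005726 (plus) for Gbp2 and chr12:41439572-41439731 (plus) for Oas3. They lie at chr2:233910839-233910998 (plus) for Gbp5, chr16:18254968-18255127 (minus) for Bst2 and chr10:42874887-42875046 (plus) for Igtp, all in GRCr8. Gbp2, Gbp5 and Rsad2 hold an ISRE core on the minus strand of the gene, beginning 31, 56 and 147 bases before the start. In Bst2 a GAS and an ISRE core share bases, and the ISRE core occurs a second time 6 bases further on with shared bases. In Igtp the GAS begins 11 bases before the ISRE core. The same distance of 11 bases was found in the promoters of Irgm and Parp14.

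**Figure D1:**
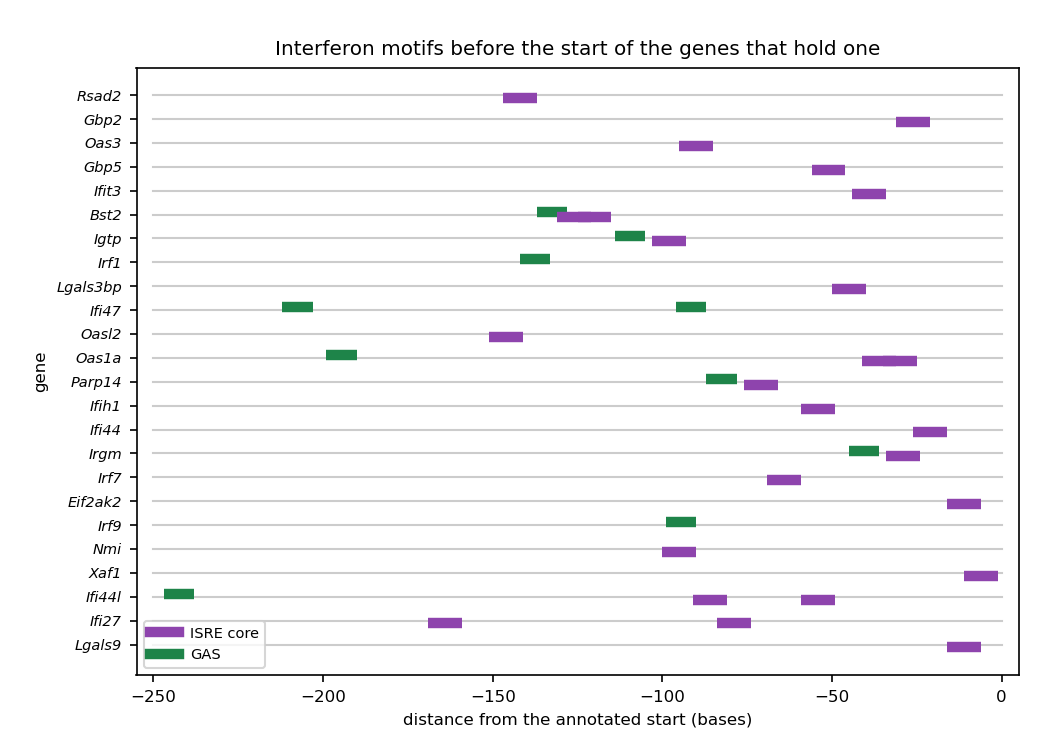
Positions of the ISRE core (purple) and the GAS (green) in the 250 bases before the annotated start of the 24 genes that hold at least 1 of them, with the distance from the start in bases on the x axis and the genes ordered from top to bottom by their log2 fold change at SAH 1d versus sham. In Igtp, Irgm and Parp14 the GAS stands just upstream of the ISRE core.

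The first comparison asked how the cortex of the SAH 1d rats differed from sham. Of the 45 genes, 23 rose and none fell (edgeR quasi-likelihood F test, Benjamini-Hochberg adjusted p under 0.05 over 18444 tested genes), whereas 14.9% of all tested genes were called higher. The fitted log2 fold change was above 0 for all 45 genes, with a median of 1.28 against 0.01 over all tested genes. Of the 23, 21 were also at least 2-fold higher, which 5.57% of all tested genes reached together with the call. In 8 genes every SAH 1d library lay above every sham library, a pattern found in 7.89% of all tested genes. The groups of proteins below differed in how many of their genes were called. All 5 interferon-inducible GTPases and all 3 genes of the PARP9 group rose, whereas none of the 3 IFIT genes passed the test. The calls do not order the groups by size of change. The median log2 fold change was 1.78 for the GTPases, 1.54 for the PARP9 group and 1.94 for the IFIT genes.

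Markers of some other cells moved in the same comparison. In every SAH 1d library the neuron sum lay below every sham library, and 6 of the 7 neuron genes fell. The 6 astrocyte genes summed to 4517 to 5685 CPM in SAH 1d against 2085 to 3813 CPM in sham, where Gfap rose, Aldh1l1 fell and the other 4 did not pass the test. The 5 monocyte and macrophage genes summed to 97.9 to 633 CPM in SAH 1d against 51.1 to 93.8 CPM in sham, and 4 of them rose. The 6 neutrophil genes summed to 6.33 to 63.0 CPM against 1.92 to 5.10 CPM, and both that passed the filter rose. The part of these cells in the rise of the 23 genes was not tested.

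**Figure D2:**
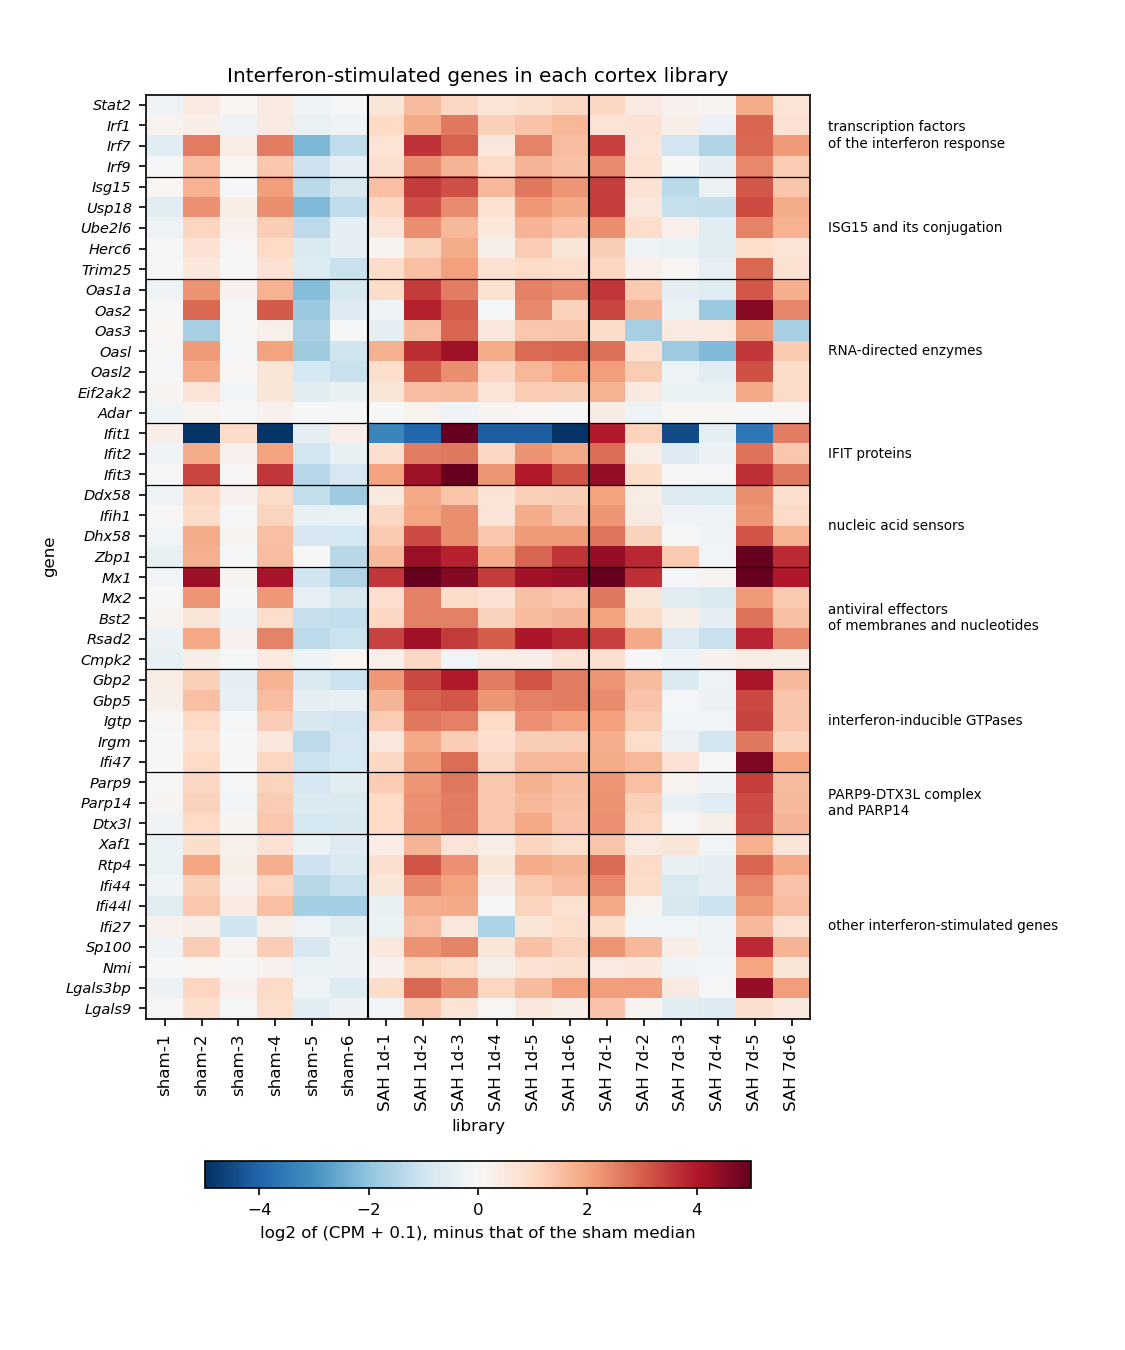
Level of each of the 45 genes (rows, grouped by role) in each of the 18 libraries (columns), as log2 of CPM + 0.1 minus the same value for the sham median of that gene, with colours held at 5 and -5. Sham-2 and sham-4 are red for most genes while the other sham libraries are pale or blue, and SAH 7d-3 and SAH 7d-4 resemble the latter.

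Among the transcription factors, Stat2 and Irf1 rose and Irf7 and Irf9 did not pass the test. Irf1, which is induced mainly by interferon gamma and by inflammatory signals, measured 6.09 CPM in the lowest, 7.73 in the median and 10.7 in the highest sham library. In SAH 1d these values were 15.7, 22.7 and 49.0 CPM. The groups did not overlap, and the log2 fold change was 1.70 ± 0.27 (SE, n = 6 per group, edgeR adjusted p = 0.000954). Stat2, a factor of the type I response, ran from 27.2 over a median of 30.4 to 42.0 CPM in sham and from 45.7 over 57.5 to 89.97 CPM in SAH 1d. It too showed no overlap, with a smaller log2 fold change of 0.87 ± 0.17 (edgeR adjusted p = 0.00403). Irf7, which amplifies the production of alpha interferons, ran from 2.32 over a median of 11.3 to 69.1 CPM in sham and from 16.9 over 48.5 to 139 CPM in SAH 1d. Sham-2 and sham-4 lay within the range of the SAH 1d libraries (1.11 ± 0.79, edgeR adjusted p = 0.321). Irf9, the DNA-binding partner of STAT2, differed by 1.07 ± 0.42 (edgeR adjusted p = 0.0795).

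In the ISG15 system, Isg15 and Trim25 rose and Usp18, Ube2l6 and Herc6 did not pass the test. Isg15, a ubiquitin-like protein that is attached to other proteins, had a median of 3.04 CPM in sham and 17.0 CPM in SAH 1d (log2 fold change 1.83 ± 0.58, edgeR adjusted p = 0.0344). The call was lost when any of sham-1, sham-3, sham-5, sham-6, SAH 1d-2 or SAH 1d-5 was left out, with an adjusted p of up to 0.0734. Trim25, a ubiquitin ligase of the RIG-I pathway, differed by 1.24 ± 0.33 without overlap of the groups. Usp18, which removes ISG15 and restrains the receptor, ran from 1.12 over a median of 5.61 to 28.3 CPM in sham and from 9.66 over 23.4 to 52.9 CPM in SAH 1d. The highest sham library thus exceeded the SAH 1d median, and the difference of 1.08 ± 0.70 was not called (edgeR adjusted p = 0.272). For Ube2l6 and Herc6, the conjugating enzyme and a ligase of ISG15, the log2 fold changes were 1.18 and 0.81, with edgeR adjusted p = 0.0575 and 0.0978.

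Of the 7 enzymes that act on RNA, 4 rose. Eif2ak2, which encodes PKR, the kinase that halts translation on double-stranded RNA, ran from 21.9 over a median of 31.6 to 50.1 CPM in sham and from 47.6 over 75.4 to 95.03 CPM in SAH 1d. Only SAH 1d-1 reached into the sham range, and the log2 fold change was 1.07 ± 0.24 (edgeR adjusted p = 0.00689). The genes of the oligoadenylate synthetase family, which switch on RNase L or bind RNA, were more variable. Oasl (2.31 ± 0.68), Oasl2 (1.58 ± 0.50) and Oas3 (2.38 ± 0.76) rose, with edgeR adjusted p between 0.0247 and 0.035, and each of these calls was lost when at least 1 library was left out. Oas3 rests on 28 counts in all sham libraries together and 171 in SAH 1d. Oas1a (1.56 ± 0.67) and Oas2 (0.84 ± 0.98) did not pass the test, and Oas1a belongs to a cluster of closely related genes whose reads the counting could split. Adar, the adenosine deaminase that edits double-stranded RNA, was the steadiest gene of the list, with medians of 87.4 CPM in sham and 90.4 CPM in SAH 1d and a log2 fold change of 0.01 ± 0.09. The sign of that value changed with the processing.

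None of the 3 IFIT genes, whose proteins bind viral RNA, passed the test. Ifit3 ran from 1.06 over a median of 3.005 to 36.3 CPM in sham and from 12.5 over 37.5 to 134 CPM in SAH 1d, with a log2 fold change of 1.94 ± 0.89 (edgeR adjusted p = 0.124). Ifit2 differed by 1.15 ± 0.52 (edgeR adjusted p = 0.121). Ifit1 was present in some libraries and nearly missing in others. In sham it measured 3.66, 0, 5.49, 0, 2.08 and 3.63 CPM in libraries 1 to 6, so that it was at 0 in the very libraries in which Ifit2 and Ifit3 were highest. In SAH 1d it measured 99.5 CPM in SAH 1d-3 and at most 0.211 CPM in the other 5 libraries. In SAH 7d it was 46.5 CPM in SAH 7d-1 and 17.1 CPM in SAH 7d-6, and 0.151 CPM in SAH 7d-5. Its log2 fold change at SAH 1d was 2.77 ± 1.72 with all libraries and -4.71 ± 1.22 without SAH 1d-3 (edgeR adjusted p = 0.0119), so its direction rests on that library. Ifit1 has closely related neighbours, how their reads were divided is not known, and its values are uncertain.

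Ddx58, Ifih1 and Dhx58 encode related sensors of foreign or misplaced RNA, and Zbp1 senses Z-form nucleic acids and can start necroptosis. Zbp1 had the largest fold change of the list in the edgeR fit, on 56 counts in sham, and its log2 value ran from 0.96 to 3.52 over the alternatives. Mx1 (3.38) and Rsad2 (3.33) stood above Zbp1 (3.15) with the replicate block, and on log2(FPKM + 0.1) Mx1, Rsad2, Gbp2, Ifit3 and Oasl did. On log2(FPKM + 1) Zbp1 was at 0.96, and many members stood above it, such as Gbp2 (2.55), Mx1 (2.47) and Isg15 (1.88). Zbp1 was found at 0 to 0.795 CPM in sham and 0.694 to 5.12 CPM in SAH 1d, with medians of 0.158 and 2.43 CPM (3.003 ± 0.72, edgeR adjusted p = 0.0100). Ifih1, which encodes MDA5, and Dhx58, which encodes the related LGP2, rose by 1.31 ± 0.33 and 1.58 ± 0.51. The call of Dhx58 was lost when any of sham-1, sham-3, sham-5, sham-6, SAH 1d-2 or SAH 1d-6 was left out. Ddx58, the gene of RIG-I, was not called (1.09 ± 0.43, edgeR adjusted p = 0.0796).

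Of the antiviral effectors, Rsad2 and Bst2 rose and Mx1, Mx2 and Cmpk2 did not pass the test. Rsad2 encodes viperin, which makes a chain-terminating nucleotide. It ran from 1.82 over a median of 4.66 to 26.2 CPM in sham and from 38.3 over 59.3 to 88.1 CPM in SAH 1d. There was no overlap, although sham-4 came within a factor of 2 of the lowest SAH 1d library (2.69 ± 0.60, edgeR adjusted p = 0.00667). Bst2, or tetherin, which holds budding virus on the membrane, ran from 2.77 over 6.59 to 12.0 CPM and from 13.7 over 20.8 to 38.1 CPM in the same groups. It showed no overlap either (1.83 ± 0.39, edgeR adjusted p = 0.00568). Mx1, a dynamin-like GTPase, measured 2.598, 57.0, 3.15, 52.1, 1.39 and 0.958 CPM in sham-1 to sham-6, against 33.8 to 139 CPM in SAH 1d. Sham-2 and sham-4 lay within the SAH 1d range and the other 4 sham libraries far below it, and the log2 fold change of 1.75 ± 0.91 was not called (edgeR adjusted p = 0.174). Over the alternatives its log2 fold change ran from 1.39 to 3.38, and 5 of 24 called it. Mx2 differed by 0.40 ± 0.54 and Cmpk2, a mitochondrial nucleotide kinase, by 0.41 ± 0.19.

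The interferon-inducible GTPases take part in the defence against intracellular pathogens and are responsive to interferon gamma. All 5 rose. Gbp2 ran from 3.70 over a median of 8.0004 to 26.998 CPM in sham and from 36.7 over 60.9 to 126 CPM in SAH 1d (2.56 ± 0.49, edgeR adjusted p = 0.00294). Gbp5 ran from 2.15 over 2.97 to 8.83 CPM and from 9.93 over 17.6 to 26.7 CPM (1.98 ± 0.41, edgeR adjusted p = 0.00438). Neither gene overlapped between the groups. Igtp ran from 3.83 over 7.29 to 17.1 CPM in sham and from 14.6 over 33.2 to 46.1 CPM in SAH 1d (1.78 ± 0.40, edgeR adjusted p = 0.00741). Irgm and Ifi47 rose by 1.21 ± 0.32 and 1.63 ± 0.42.

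Parp9 and Dtx3l encode an ADP-ribosyltransferase and its ubiquitin ligase partner, and Parp14 a further ADP-ribosyltransferase. The 3 log2 fold changes were alike, at 1.56 ± 0.36 for Parp9, 1.54 ± 0.40 for Dtx3l and 1.46 ± 0.39 for Parp14. Parp9 ran from 4.93 over 9.004 to 19.9 CPM in sham and from 21.6 over 28.5 to 56.2 CPM in SAH 1d, without overlap (edgeR adjusted p = 0.00798). Among the 9 remaining genes, Nmi and Lgals3bp rose. Nmi, which binds STAT proteins, ran from 4.04 over 5.12 to 6.02 CPM in sham and from 5.91 over 8.84 to 11.2 CPM in SAH 1d (0.77 ± 0.17, edgeR adjusted p = 0.00716). Lgals3bp, a secreted galectin-binding glycoprotein, ran from 9.48 over 15.2 to 31.8 CPM and from 29.1 over 54.6 to 112 CPM (1.66 ± 0.38, edgeR adjusted p = 0.00781). In both genes the lowest SAH 1d libraries fell just below the highest sham library. Xaf1, Rtp4, Ifi44, Ifi44l, Ifi27, Sp100 and Lgals9 did not pass the test, with log2 fold changes between 0.29 for Lgals9 and 1.28 for Ifi44.

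**Figure D3:**
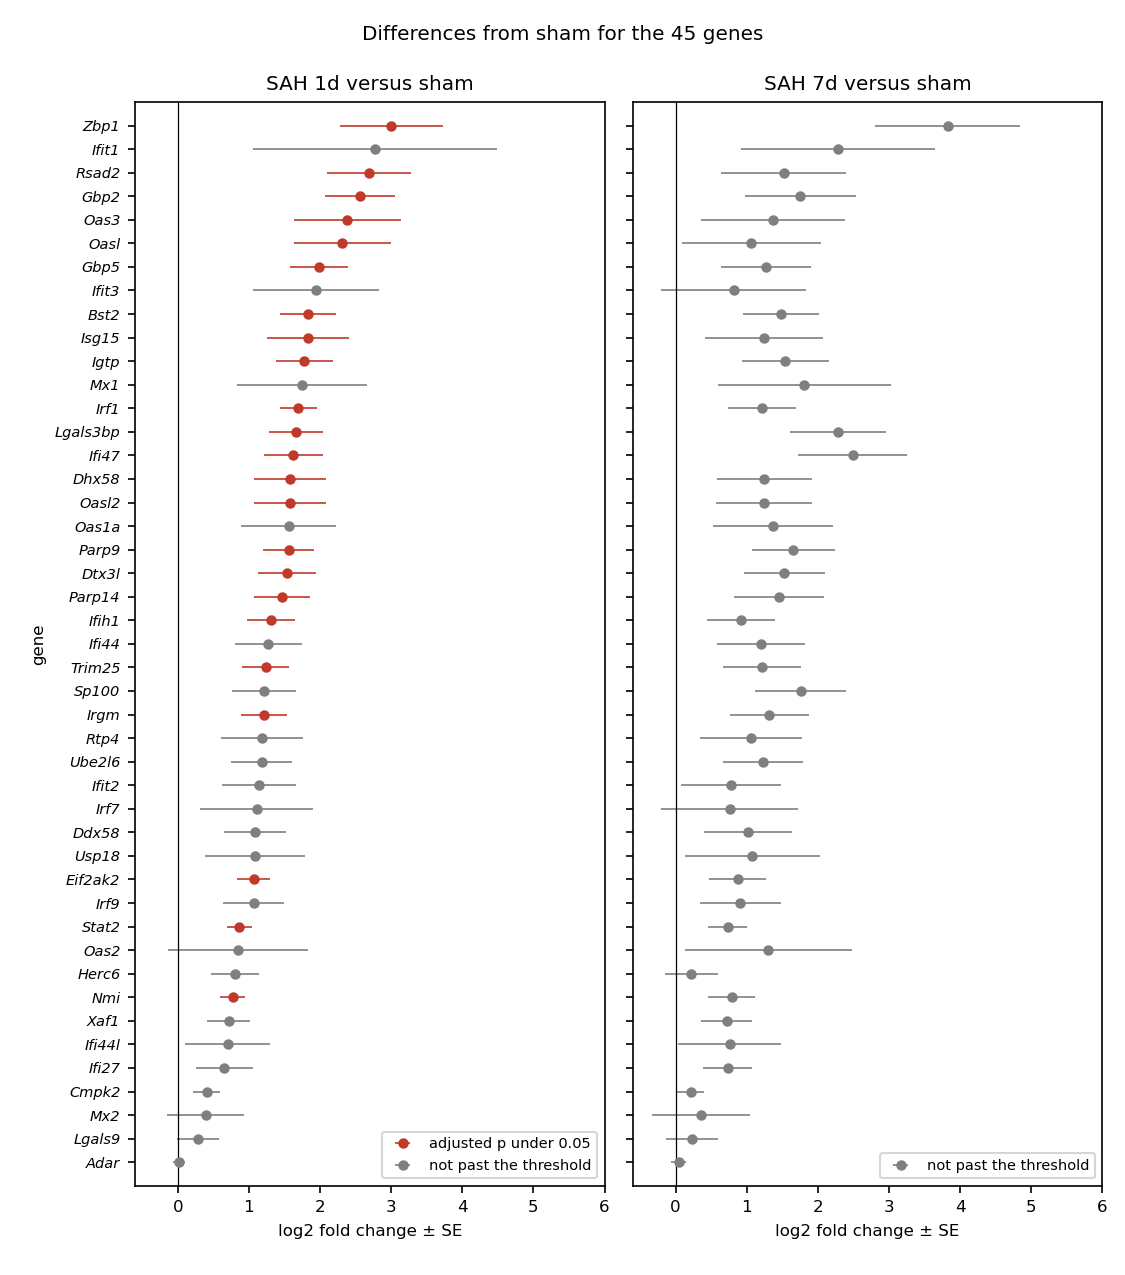
Log2 fold change with its SE from the edgeR fit for each of the 45 genes in SAH 1d versus sham (left) and SAH 7d versus sham (right), 6 libraries per group, ordered by the left panel, with genes at an adjusted p under 0.05 in red. The 23 called genes are all on the left, and the SE on the right is wider for most genes at similar fold changes.

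When all 18 libraries shared 1 estimate of the spread, only 8 of the 23 calls remained, namely Stat2, Irf1, Zbp1, Bst2, Rsad2, Gbp2, Gbp5 and Igtp. The share of all tested genes called higher fell likewise, from 14.9% to 8.18%. Of the 23 calls, 18 remained with each of the 12 libraries left out in turn, and Isg15, Oas3, Oasl, Oasl2 and Dhx58 lost theirs at least once.

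The sham group itself was divided. Sham-2 and sham-4 were the highest sham libraries for 43 of the 45 genes, as they were for 6.24% of all tested genes, and Oas3 and Ifit1 were the exceptions. Both libraries were at least 2 times the highest of the other 4 for 19 of the 45 genes and for 0.45% of all tested genes. The lower of the pair stood 16.6 times above the highest other sham library for Mx1, 10.02 times for Ifit3, 9.73 times for Oas2 and 4.56 times for Irf7. For Stat2, Irf1, Nmi and Adar this ratio was only 1.29, 1.14, 1.05 and 1.11. The SD of log2 CPM within sham was largest for Ifit1 (3.02), Mx1 (2.58), Oas2 (2.18), Ifit3 (2.16), Irf7 (2.01) and Usp18 (1.89), and none of these 6 was called at SAH 1d. The median SD of the 45 genes was 0.979 in sham, 0.673 in SAH 1d and 1.39 in SAH 7d, against 0.225, 0.309 and 0.382 over all tested genes. The pattern was noticed in these data and is given without a test.

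The 83 tested genes with this 2-fold separation were 19 members of the list and 64 others, of which 23 were loci outside the annotation and 10 were RT1 genes, the rat major histocompatibility complex. Other genes of the set included Gbp4, with 6.81 and 7.23 CPM in sham-2 and sham-4 and at most 1.44 CPM in the rest, and the peptide transporter gene Tap1, with 12.8 CPM in each of the pair and at most 4.43 CPM in the rest. These 2 were chosen after their values were seen. For the other 14 pairs of sham libraries, 6 to 30 genes were separated in this way, and none was a member. Sham-2 exceeded SAH 1d-1 in 30 of the 45 genes and both SAH 7d-3 and SAH 7d-4 in 43. In what share of all tested genes sham-2 exceeded these libraries is not given here, so these counts describe the list only. Leaving out sham-2 gave 28 calls at SAH 1d and leaving out sham-4 gave 27, and Ube2l6, Sp100 and Ifi44 were gained in both cases. Over all tested genes the calls in either direction went from 4684 to 3670 without sham-2 and to 3663 without sham-4.

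**Figure D4:**
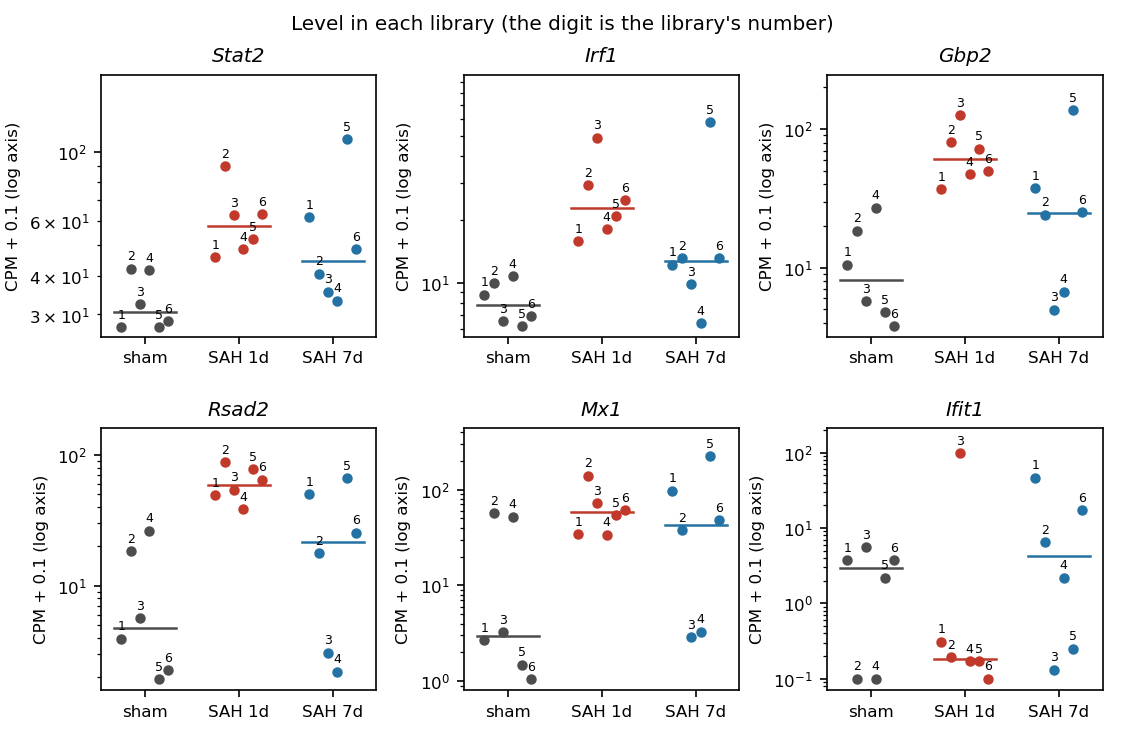
CPM + 0.1 on a log axis in each of the 18 libraries for 6 genes, with the number of the library above each point and the group median as a line. For Mx1 the sham libraries fall at about 1 to 3 CPM and at 52 to 57 CPM, whereas Stat2 and Irf1 have narrow sham ranges below all SAH 1d points and Ifit1 is near 0 in 5 SAH 1d libraries.

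Markers of blood and immune cells were set beside these levels. The summed CPM of 5 red cell genes was 108 in sham-2 and 109 in sham-4, against 13.3 to 59.9 in the other sham libraries. The 5 monocyte and macrophage genes summed to 75.3 and 76.1 CPM in sham-2 and sham-4 and to 51.1 to 93.8 CPM over the sham group, so the pair did not stand out there. The neutrophil sum was 3.59 and 5.10 CPM in the pair. The part of these cells in the levels was not tested.

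The SAH groups were divided as well. SAH 1d-2 was the highest library of its group for 26 genes and SAH 1d-3 for 19, and over all tested genes they were the highest for 15.3% and 33.1%. All SAH 1d libraries exceeded sham in the sums of monocyte and macrophage genes and of neutrophil genes. SAH 1d-3 was the highest, with 633 and 63.0 CPM against at most 134 and 14.8 CPM in the rest of the group. In SAH 1d-2, where the sums were 134 and 14.8 CPM, 43 of the 45 genes exceeded every sham library. The share of all tested genes that did so in SAH 1d-2 is not given here. Without SAH 1d-3, 22 of the 23 calls remained, Oas3 was lost, Cmpk2 was called higher and Ifit1 lower. Over all tested genes the calls in either direction went from 4684 to 5252 in that fit. SAH 1d-4 and SAH 1d-6 carried choroid plexus genes at 740 and 1070 CPM, against 23.97 to 48.7 CPM in the other 4. Without both of them 24 members were called higher, and 3810 of all tested genes were called in either direction.

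**Figure D5:**
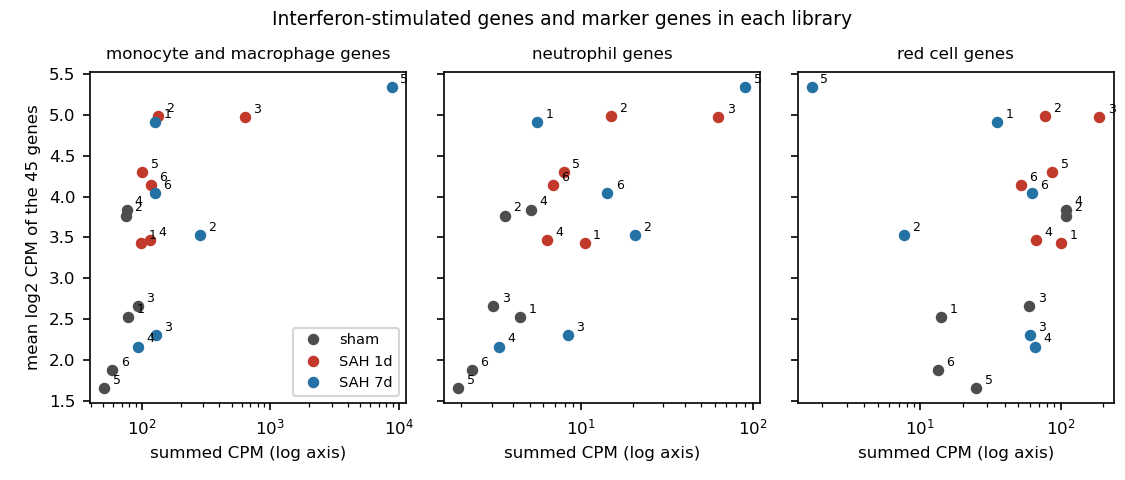
Mean log2 CPM of the 45 genes in each library against the summed CPM of monocyte and macrophage, neutrophil and red cell genes on log axes, with the number of the library beside each point. SAH 7d-1 and SAH 1d-2 have high means at macrophage sums of 127 and 134 CPM, whereas SAH 7d-5 lies at 8770 CPM.

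The second comparison asked what was left at SAH 7d. No member passed the edgeR test, and neither did any other of the 18444 tested genes (0%). The paper does report differentially expressed genes between these groups, most of them upregulated, and names no test. In the DESeq2 fit made here 459 of all tested genes were called in either direction, so the absence of calls belongs to the edgeR test. The median log2 fold change of the 45 genes was 1.21, and all 45 values were above 0, against a median of -0.0039 over all tested genes. At an unadjusted p under 0.05, 17 members were higher, as were 11.7% of all tested genes. The DESeq2 Wald test called Zbp1, Ifi47 and Lgals3bp higher, while 2.2% of all tested genes were called higher by it, and limma called no member. No member had all SAH 7d libraries above all sham libraries, which 0.797% of the tested genes had. The values share their sham libraries with those of SAH 1d.

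The SAH 7d group, with its median SD of 1.39, was divided more widely. SAH 7d-5 was the highest library for 33 genes and SAH 7d-1 for the other 12, whereas SAH 7d-4 was the lowest for 34. Over all tested genes SAH 7d-5 was the highest for 38.7% and SAH 7d-1 for 13.7%, and SAH 7d-4 was the lowest for 16.9%. In SAH 7d-1 all 45 genes exceeded every sham library, and in SAH 7d-5 39 did. The number was 20 in SAH 7d-6, 11 in SAH 7d-2 and 1 each in SAH 7d-3 and SAH 7d-4. Shares of all tested genes above every sham library are not given here. Whether these counts are particular to the list was therefore not tested. The mean log2 CPM over the 45 genes was 5.35 in SAH 7d-5 and 4.91 in SAH 7d-1, and 2.30 and 2.16 in SAH 7d-3 and SAH 7d-4, close to the 1.65 to 2.66 of the 4 lower sham libraries.

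SAH 7d-5 carried 8770 CPM of monocyte and macrophage genes, 2447 CPM of microglia genes and 319 CPM of T and NK cell genes, against at most 284, 1013 and 36.0 CPM in the rest of its group. Its 5 genes of meningeal fibroblasts summed to 3899 CPM and its 5 mural cell genes to 254 CPM, against at most 323 and 139 CPM in the rest. In SAH 7d-1, where all 45 genes exceeded sham, the macrophage sum was 127 CPM, against 51.1 to 93.8 CPM in sham. The part of immune, meningeal and mural cells in these levels was not tested. The 12 genes highest in SAH 7d-1 were the 3 IFIT genes, Irf7, Isg15, Usp18, Herc6, Oas1a, Adar, Mx2, Cmpk2 and Lgals9. The 33 highest in SAH 7d-5 took in all 5 GTPases, all 3 genes of the PARP9 group and all 4 nucleic acid sensors, and also Mx1, Rsad2, Bst2, Oas2, Oas3, Oasl and Oasl2. Ifi47 measured 4.38 to 17.6 CPM in 5 of the SAH 7d libraries and 114 CPM in SAH 7d-5. Without that library its log2 fold change against sham went from 2.49 ± 0.77 to 1.203 ± 0.44. For Lgals3bp it went from 2.28 ± 0.67 to 1.29 ± 0.43 and for Irf1 from 1.21 ± 0.47 to 0.43 ± 0.21. The median of the 45 genes without SAH 7d-5 was 0.62.

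Between SAH 7d and SAH 1d no member was called by edgeR, by DESeq2 or by limma on FPKM, and none reached an unadjusted p under 0.05, which 14.7% of all tested genes did. Among all tested genes edgeR called 0.282% higher and 1.08% lower. The log2 fold changes of the members ran from -1.25 for Oasl to 0.87 for Ifi47, with a median of -0.12. The SE of the difference was 0.86 for Oasl, 0.67 for Rsad2 (-1.17) and 0.68 for Gbp2 (-0.80), and none of these differences was called by edgeR. Limma voom with sample weights called 5 members lower, namely Irf1, Gbp2, Gbp5, Rsad2 and Oasl. That fit called 2718 of all 18444 tested genes in either direction. Without SAH 7d-5, edgeR called Irf1 (-1.29) and Gbp2 (-1.82) lower, among 1545 of all tested genes called in either direction. Counted in either direction, calls were in neither fit more frequent among the members than among all tested genes. The share of all tested genes called lower in these fits is not given here.

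Levels of different genes can be compared as FPKM, which the authors scaled to transcript length. In sham the order was headed by Ifi27 at 73.7 ± 24.9 FPKM (SD, n = 6), Mx2 at 30.3 ± 28.7 and Adar at 23.0 ± 3.12. Ifi27 stood above Adar beyond their spread, whereas Mx2 and Adar could not be ordered. The lowest were Oas3 at 0.0415 ± 0.0333 FPKM and Zbp1 at 0.142 ± 0.159, which also did not differ beyond their spread.

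The other genes of the pathway were taken from 5 lists with 46 genes, of which 41 were measured and 30 tested. At SAH 1d 14 rose, where 14.9% of all tested genes did, and none fell. At SAH 7d versus sham edgeR called none of the 30, with 17 higher at an unadjusted p under 0.05 (11.7% of all tested genes). DESeq2 called 8 higher (2.2% of all tested genes), namely Tlr3, Tlr7, Tlr9, Tmem173, Irf5, Irf8, Ifngr1 and Ptpn6. Between SAH 7d and SAH 1d edgeR called none, with 11 at an unadjusted p under 0.05 (14.7% of all tested genes). DESeq2 called Tlr9 higher and Socs3 lower, as it did 1.99% and 3.5% of all tested genes. Not 1 of the 11 measured interferon ligand genes passed the filter. Ifne had the most, with 9 counts over all SAH 1d libraries, 5 of them in SAH 1d-3, and none in sham or SAH 7d. Ifnb1 had 3 counts in SAH 1d and none in the other groups. Ifna4 had 2 counts in sham and 6 in SAH 7d, Ifng had 2 in sham, and the other 7 were at 0 throughout. A count of 0 over a group allows up to 3 counts. At these levels a difference was not detectable.

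Of the 6 receptor subunits, 4 rose at SAH 1d. Ifnar2, a subunit of the type I receptor, ran from 9.25 over 10.5 to 11.7 CPM in sham and from 16.5 over 21.2 to 29.5 CPM in SAH 1d without overlap (1.07 ± 0.14, edgeR adjusted p = 0.000313). The other subunit, Ifnar1, had medians of 103 and 104 CPM and a log2 fold change of 0.04 ± 0.07. Il10rb (1.05) and Ifnlr1 (1.06), which form the type III receptor, and Ifngr2 (0.35) rose too. Among the kinases and STATs, Stat3 (1.41), Jak2 (0.76) and Jak1 (0.35) rose and Tyk2 (0.17, edgeR adjusted p = 0.169) did not pass the test. Jak2 had medians of 64.3 CPM in sham and 91.7 CPM in SAH 1d.

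Of 13 upstream sensors and adaptors, Irf8, Myd88, Cgas and Irf5 rose. Irf8, a factor of myeloid cells and microglia, ran from 6.86 over 8.18 to 13.6 CPM in sham and from 19.8 over 26.8 to 34.2 CPM in SAH 1d (1.56 ± 0.18, edgeR adjusted p = 0.000107). Cgas, a sensor of DNA in the cytosol, rose by 2.55 ± 0.65 from 32 counts in sham to 225 counts in SAH 1d. Among 7 inhibitors, Socs3 had the largest change, from 0.198 to 1.00 CPM in sham to 5.10 to 60.7 CPM in SAH 1d (5.10 ± 0.70, edgeR adjusted p = 0.000389). The phosphatases Ptpn6 (1.43) and Ptpn2 (0.89) rose, and Socs1, an inhibitor of the JAK kinases, was not called (0.90 ± 0.40, edgeR adjusted p = 0.114). Sham-2 and sham-4 were the highest sham libraries for 2 of the 30 pathway genes, and for 6.24% of all tested genes. The 2 were Ifnlr1 and Tlr9, by ratios of 1.10 and 1.005. For Tlr9 this rests on 20 and 13 counts in the pair against 12 in sham-1.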

How the data were processed

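RNA from the cortex of 18 rats was sequenced by the authors, 1 library per rat. The study states alignment to the rat build Rnor_6.0, whereas the labels name mm9, fastp, HISAT2 and DESeq2 1.16.1 with no role given. The labels give the rat as organism, but their extraction note speaks of mice. Rat gene identifiers were deposited. The counts were deposited without normalization, as 1 whole number for each gene in each library, and the deposited FPKM values were scaled by the authors to transcript length and mapped reads. How reads of near-identical genes were counted is not given in the sources used here, so precision rests on the differences among rats.

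Low genes were removed with filterByExpr over the 18 libraries, TMM factors scaled the counts, and edgeR 4.0.16 in R 4.3.3 compared 12 libraries at a time with the two-sided quasi-likelihood F test. A gene was called at a Benjamini-Hochberg adjusted p under 0.05 over all tested genes, and "rose" and "fell" are used for called genes only. The SE was taken from the fold change and the F statistic. Log2 CPM used a prior count of 2. Members and lists were chosen with earlier results of these data known. Full values are given for up to 12 called members per comparison by adjusted p and for the 6 with the largest SD within sham. Alternatives used DESeq2 1.42.0, limma 3.58.1, other filters, FPKM with pseudocounts of 1 and 0.1, and each library left out. The tests were tested on simulated data. Those data held no libraries that deviate together over many genes, as sham-2 and sham-4 do, so they do not cover that feature. Tables and figures used Python 3.11.15, numpy 2.4.6, pandas 2.3.3 and matplotlib 3.10.9.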

Additional observations from a re-analysis of the deposited data

Results flagged for a closer look

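Each of the 45 genes and their mean was examined for a single library far from the other 5 in each group, which gave 138 groups. A library was noted when its gap to the nearest other one exceeded 0.625 of the range of log2 CPM. Chance gives such a gap in about 1 of 20 groups, and 2 were found here. Irf1 in SAH 7d-5 had a ratio of gap to range of 0.675, with 58.1 CPM against at most 12.99 CPM in the other SAH 7d libraries. Ifit1 in SAH 1d-3 had a ratio of 0.802, with 99.5 CPM against at most 0.211 CPM in the other SAH 1d libraries. Both libraries are those with the highest sums of monocyte and macrophage genes in their groups, and the part of these cells was not tested.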

How the results depend on the processing

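At SAH 1d versus sham the number of called members was within 1.5 times of 23 under 23 of 24 alternatives, and it was 8 with all 18 libraries in 1 fit. With each library left out it ran from 18 to 28 members, and the calls over all tested genes ran from 3517 to 5252. At SAH 7d versus sham the DESeq2 Wald test called 3 members and the other 22 alternatives called none, including each library left out (0 to 0). At SAH 7d versus SAH 1d limma voom with sample weights called 5, and leaving out each library gave 0 to 2. The fit that left out both SAH 1d-3 and SAH 7d-5 called 3 (Ifit1 higher, Gbp2 and Irf1 lower), among 2512 of all tested genes. Without SAH 7d-5 alone the number was 2. In the comparisons with sham, this pair is the same as leaving out the 1 of them that is present. The number of pathway genes called at SAH 1d was 11 to 16 with each library left out and 16 with DESeq2, against 14. Sham-2 and sham-4 were highest for 43 members with DESeq2 size factors, as FPKM and without a filter as well. The fit without SAH 1d-4 and SAH 1d-6 was chosen after seeing the data.

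Single genes at SAH 1d gave 1072 values under the alternatives, of which 970 kept direction and side of the threshold, 45 lost and 47 gained a call. The 10 that reversed belong to Adar and Ifit1. Adar was at -0.0073 with limma voom and at -0.031 to 0.053 with each library left out. Ifit1 was at -1.84 with limma voom, -2.01 with the replicate block, -0.88 on log2(FPKM + 0.1), and -4.71 without SAH 1d-3, also when SAH 7d-5 was named with it, within a range of -4.71 to 3.17 with each library left out. The cause was not tested. Groups share replicate numbers, but same-numbered libraries did not deviate together (correlations of -0.252 to 0.197), so the numbers were not taken as pairs. With the replicate block 24 members and 3979 of all tested genes were called at SAH 1d versus sham. In each of the other 2 comparisons 0 members were called. For genes at few counts, such as Oas3 and Zbp1, depth limits what can be seen.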
